A study of Mus musculus with 72 samples.

Results

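The genes described here make fatty acids and store them as triacylglycerol. They were listed by name: 34 genes of fatty acid synthesis, elongation and desaturation, fatty acid activation, glycerol 3-phosphate supply and esterification. Of these, 31 were measured among the 12265 genes tested, each on its probe with the highest mean signal. Acacb, Gyk and Pnpla3 were not analysed here, because no probe carried their name in the annotation used. The list holds 7 measured genes of fatty acid synthesis with its acetyl-CoA and NADPH supply, 3 regulators, 7 genes of elongation and desaturation, 3 acyl-CoA synthetases, 2 genes of glycerol 3-phosphate supply and 9 genes of esterification.

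The study asked how tissue that cannot break down its triacylglycerol changes on the way to liposarcoma. Total RNA of mouse adipose tissue was measured on 72 Illumina bead arrays. ATGL, the product of Pnpla2, and HSL, the product of Lipe, carry out the opening steps of lipolysis. DAKO mice lacked both lipases in adipose tissue, HSLAKO mice lacked HSL, ATGLAKO mice lacked ATGL, and control mice, which the labels call wild type, carried the Cre transgene alone according to the study's methods. In HSLAKO and control mice Cre was driven by the Fabp4 promoter, so the deletion of Lipe, of its exon 1, was directed to cells in which this promoter is active. DAKO mice came from crossing the HSLAKO and ATGLAKO lines, and how ATGLAKO mice were made is not given in the sources used here. The strain was C57BL/6J. Interscapular brown adipose tissue (BAT) and perigonadal white adipose tissue (WAT) were taken from mice fasted for 5 h. BAT at 3 months had 5 DAKO, 4 HSLAKO, 5 ATGLAKO and 5 control arrays. BAT at 7 months and at 12 months had 4 arrays of each genotype. DAKO BAT at 14 months, the tumour stage in the study, had 5 arrays. WAT at 3 months had 4 DAKO, 4 HSLAKO, 5 ATGLAKO and 3 control arrays. Replicates carried separate mouse numbers within a group, and some mice at 3 months gave both tissues.

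In lipogenic cells, citrate leaves the mitochondrion and is cleaved to acetyl-CoA, which acetyl-CoA carboxylase and fatty acid synthase turn into palmitate at the cost of NADPH. Elongases and desaturases modify palmitate and dietary fatty acids. Acyl-CoA synthetases activate fatty acids, and acyltransferases, phosphatidate phosphatases and diacylglycerol acyltransferases attach them one after another to glycerol 3-phosphate. SREBP-1, ChREBP and the nuclear protein Spot 14 are known as regulators of the pathway in liver and fat, and brown adipose tissue of mice is among the tissues with active fatty acid synthesis.

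The labels were checked before any comparison, because several went against the data. Signals are log2 values after background correction and quantile normalization, and levels of different probes cannot be set against each other. Ucp1, which encodes the uncoupling protein that defines brown adipocytes, fell into 2 ranges on the 56 arrays labelled BAT: 33 arrays lay between 11.38 and 13.89, and 23 lay between 4.26 and 8.25. All arrays of BAT at 3 months lay in the upper range, whereas all 4 control arrays at 7 months and all 4 control arrays at 12 months lay in the lower range. On 16 of the 72 arrays, markers of mesothelial cells, which cover perigonadal fat, were present: the mean of 10 markers was at least 6.15 there and at most 5.55 on the others. These 16 arrays were all 8 control BAT arrays of 7 and 12 months, 2 ATGLAKO BAT arrays at 7 months, 1 at 12 months, 4 of 5 ATGLAKO WAT arrays and 1 of 3 control WAT arrays. Conversely, Ucp1 reached 13.60 on arrays labelled WAT. On 17 of the 56 knockout arrays, a lipase named as deleted had a signal no lower than the lowest control BAT array at 3 months. Where the probes lie relative to the deleted parts is not given in the sources used here, so a retained signal does not by itself contradict a deletion. The groups below are therefore the arrays labelled as such, and every difference at 7 and 12 months was taken against control arrays in the lower Ucp1 range.

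The deleted genes at 3 months in BAT were as follows. Lipe had log2 signals of 7.84, 7.21, 7.19, 5.55 and 8.95 in DAKO, 7.35, 5.83, 5.58 and 6.65 in HSLAKO, 10.05, 10.37, 9.52, 8.32 and 8.33 in ATGLAKO, and 9.31, 9.50, 9.78, 9.81 and 9.95 in control arrays. Every DAKO and HSLAKO array was below the controls, yet the differences of -2.32 ± 0.88 in DAKO (SE, adjusted p = 0.1) and -3.32 ± 0.94 in HSLAKO (adjusted p = 0.0177) did not reach the threshold of 0.01 used below. Pnpla2 had 14.04, 13.93, 13.85, 10.02 and 11.03 in DAKO, 14.10, 10.92, 10.58 and 13.36 in HSLAKO, 13.20, 13.31, 11.18, 11.67 and 11.95 in ATGLAKO, and 13.31, 12.94, 12.91, 13.10 and 13.23 in control arrays. Pnpla2 was thus within or above the control range on 3 of 5 DAKO and 2 of 5 ATGLAKO arrays.

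Promoter windows are shown for genes whose signals the results below turn on: Thrsp and Fasn, which moved with Ucp1, Elovl1, which moved the other way, and Elovl5, which was called in most comparisons that called any gene of the list. Each window runs 5′ to 3′, 250 bases before the RefSeq transcript start to 50 after it (GRCm38.p6). Capitals mark CCAAT, the motif of the factor NF-Y, CACGTG, the E-box that SREBP and other basic helix-loop-helix proteins can bind, or their reverse complements, and 2 overlapping CCAAT matches run together in Fasn.
Thrsp, chr7:97417501-97417800, minus strand: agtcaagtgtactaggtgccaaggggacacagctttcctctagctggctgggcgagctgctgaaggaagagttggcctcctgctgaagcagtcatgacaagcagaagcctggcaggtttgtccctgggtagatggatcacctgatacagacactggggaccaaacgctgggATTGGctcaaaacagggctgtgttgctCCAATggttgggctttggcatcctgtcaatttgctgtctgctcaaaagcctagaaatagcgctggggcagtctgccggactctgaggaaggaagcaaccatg
Fasn, chr11:120824498-120824797, minus strand: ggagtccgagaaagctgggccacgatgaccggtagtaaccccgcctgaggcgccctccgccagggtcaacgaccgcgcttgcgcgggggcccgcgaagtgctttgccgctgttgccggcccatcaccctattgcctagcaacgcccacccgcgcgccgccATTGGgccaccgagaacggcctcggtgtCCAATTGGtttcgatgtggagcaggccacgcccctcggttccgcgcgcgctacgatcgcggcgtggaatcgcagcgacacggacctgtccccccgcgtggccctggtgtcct
Elovl1, chr4:118427843-118428142, plus strand, the first of 2 listed windows: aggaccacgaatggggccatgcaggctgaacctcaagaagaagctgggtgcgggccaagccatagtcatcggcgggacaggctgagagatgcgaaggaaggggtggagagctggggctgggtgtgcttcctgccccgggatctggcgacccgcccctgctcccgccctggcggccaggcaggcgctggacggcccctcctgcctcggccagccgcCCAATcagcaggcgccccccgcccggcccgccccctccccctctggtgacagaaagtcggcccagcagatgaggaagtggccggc
Elovl5, chr9:77917115-77917414, plus strand: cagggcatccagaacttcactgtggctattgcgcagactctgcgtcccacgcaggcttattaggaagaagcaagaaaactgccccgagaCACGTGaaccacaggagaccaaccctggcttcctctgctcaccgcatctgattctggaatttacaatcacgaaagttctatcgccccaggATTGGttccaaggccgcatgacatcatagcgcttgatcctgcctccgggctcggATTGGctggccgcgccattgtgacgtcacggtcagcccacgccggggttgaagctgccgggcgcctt
The Thrsp matches begin 79 and 52 bases upstream of the start, those of Fasn 90, 62 and 59 bases, that of Elovl1 35 bases, and those of Elovl5 71 and 17 bases for CCAAT and 161 bases for CACGTG. Windows were listed for 23 of the 31 measured genes (32 windows). CCAAT on either strand was found in 16 of these windows (50%), against 37.4% of all 32851 windows of this length. CACGTG was found in 4 (12.5%), those of Elovl5, Lpin2, Mlxipl and Slc25a1, against 7.15% of all windows. TCACNCCAC, a sterol response element, was found in 1 (3.12%), that of Mlxipl, against 1.24%. A match is a description of the letters and not of binding.

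Over all 72 arrays, genes of regulation, glycerol 3-phosphate supply and storage spanned the widest ranges of log2 signal. Thrsp, which encodes Spot 14, ran between 4.20 and 13.93, a range of 9.72, against 0.31 among the 5 control BAT arrays at 3 months. Gpd1, the cytosolic dehydrogenase that makes glycerol 3-phosphate from a glycolytic intermediate, spanned 8.31, and Dgat2, which adds the last fatty acid to diacylglycerol, spanned 7.93. Elovl6, which elongates palmitate, spanned 7.59. Elovl5, an elongase of polyunsaturated fatty acids, had the narrowest range at 1.55, with 9.89 as its lowest and 11.44 as its highest signal. Fads2, the delta-6 desaturase, was detected on 34 arrays and Mogat2, a monoacylglycerol acyltransferase best known in the intestine, on 36, so many of their values lie at background.

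The first question was what loss of HSL, ATGL or both does to these genes in BAT at 3 months, before tumours. Most of the list had lower mean signals in each knockout than in control BAT, yet nearly none passed the test. A gene was called at an adjusted p under 0.01 in 1 limma fit of all 17 labelled groups, and all 3 comparisons share the 5 control arrays. In DAKO BAT, Elovl5 fell by 0.68 ± 0.15 on the log2 scale (SE, adjusted p = 0.00553) and was the 1 gene called of 31, where 1.3% of all genes were called, with 0.709% of all genes lower. In HSLAKO BAT 0 of 31 were called, where 2.63% of all genes were, and 9 had an unadjusted p under 0.05. In ATGLAKO BAT 0 were called, where 0.253% of all genes were, and 4 had an unadjusted p under 0.05. The shares of all genes are at an adjusted p under 0.01. Counts at an unadjusted p under 0.05, here and below, stand without such a share. They cannot be read as an excess in the list. The median log2 difference from control over the 31 genes was -0.71 in DAKO, -1.16 in HSLAKO and -0.53 in ATGLAKO, beside -0.04, -0.03 and -0.02 over all genes. The mean was lower than in control for 25 genes in DAKO, 26 in HSLAKO and 26 in ATGLAKO.

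The roles differed in these values. All 7 synthesis genes and all 3 regulators had lower means in each knockout, with a median difference over the synthesis genes of -0.83 in DAKO, -1.38 in HSLAKO and -0.66 in ATGLAKO. Of the 9 esterification genes, 8 had lower means in each, with medians of -0.68, -1.15 and -0.48 in the same order of genotypes. Among those counted as lower in DAKO, Lpin1 (-0.001) and Mogat2 (-0.0091) had differences near 0. Elongation and desaturation stood near 0, with medians of 0.00 in DAKO, 0.15 in HSLAKO and 0.15 in ATGLAKO. There Elovl1, Fads1 and Scd2 had higher means in each knockout, and Elovl6 and Elovl5 had lower ones. These medians are descriptions, and no test was made of the roles against each other.

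Elovl5 had signals of 10.40, 10.12, 10.29, 10.47 and 10.74 in DAKO, 10.48, 10.72, 10.42 and 10.32 in HSLAKO, 10.49, 11.25, 10.68, 10.50 and 10.52 in ATGLAKO, and 11.15, 11.25, 11.23, 11.06 and 10.77 in control arrays. All DAKO and HSLAKO arrays were below all control arrays, while 4 ATGLAKO arrays lay below them and 1 above them. The call in DAKO was lost when any of 8 of the 10 compared arrays was left out, the exceptions being DAKO replicate 5 and control replicate 5, when the 17 arrays with a retained lipase signal were left out, and when arrays were scaled to a common median.

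Thrsp had 13.45, 12.54, 13.01, 9.73 and 12.71 in DAKO, 12.35, 9.48, 8.93 and 12.10 in HSLAKO, 13.75, 13.93, 12.27, 10.86 and 10.91 in ATGLAKO, and 13.36, 13.52, 13.67, 13.40 and 13.67 in control arrays. Fasn, fatty acid synthase itself, had 9.37, 8.01, 8.64, 6.27 and 8.11 in DAKO, 8.24, 6.31, 6.00 and 8.06 in HSLAKO, 9.19, 9.74, 7.67, 7.55 and 7.53 in ATGLAKO, and 8.97, 9.22, 9.94, 9.13 and 9.87 in control arrays. For both genes DAKO replicate 4 and HSLAKO replicates 2 and 3 were the lowest arrays, every HSLAKO array was below the controls, and the ATGLAKO arrays lay on both sides of the lowest control. The 2 HSLAKO arrays with the lowest Thrsp and Fasn signals were also the 2 lowest of that group in Pnpla2. Agpat2, the acyltransferase that makes phosphatidic acid and whose human loss causes lipodystrophy, had 12.39, 11.61, 11.73, 8.80 and 11.57 in DAKO, 11.46, 9.00, 8.61 and 11.58 in HSLAKO, 12.45, 13.05, 11.39, 9.01 and 9.49 in ATGLAKO, and 11.85, 12.34, 12.67, 12.59 and 12.78 in control arrays. The spread within each knockout was several log2 units, against under 1 among controls. The differences of Thrsp in HSLAKO (-2.81 ± 1.76, SE, adjusted p = 0.303), of Gpd1 (-2.33 ± 1.44, adjusted p = 0.296) and of Agpat2 (-2.28 ± 1.24, adjusted p = 0.227) were the largest decreases there and did not pass the test. Those of Fasn (-1.35 ± 1.08, adjusted p = 0.495), Thrsp and Agpat2 led in DAKO, and those of Srebf1 (-1.39 ± 0.69, adjusted p = 0.323), Agpat2 and Acsl5 led in ATGLAKO.

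**Figure D1:**
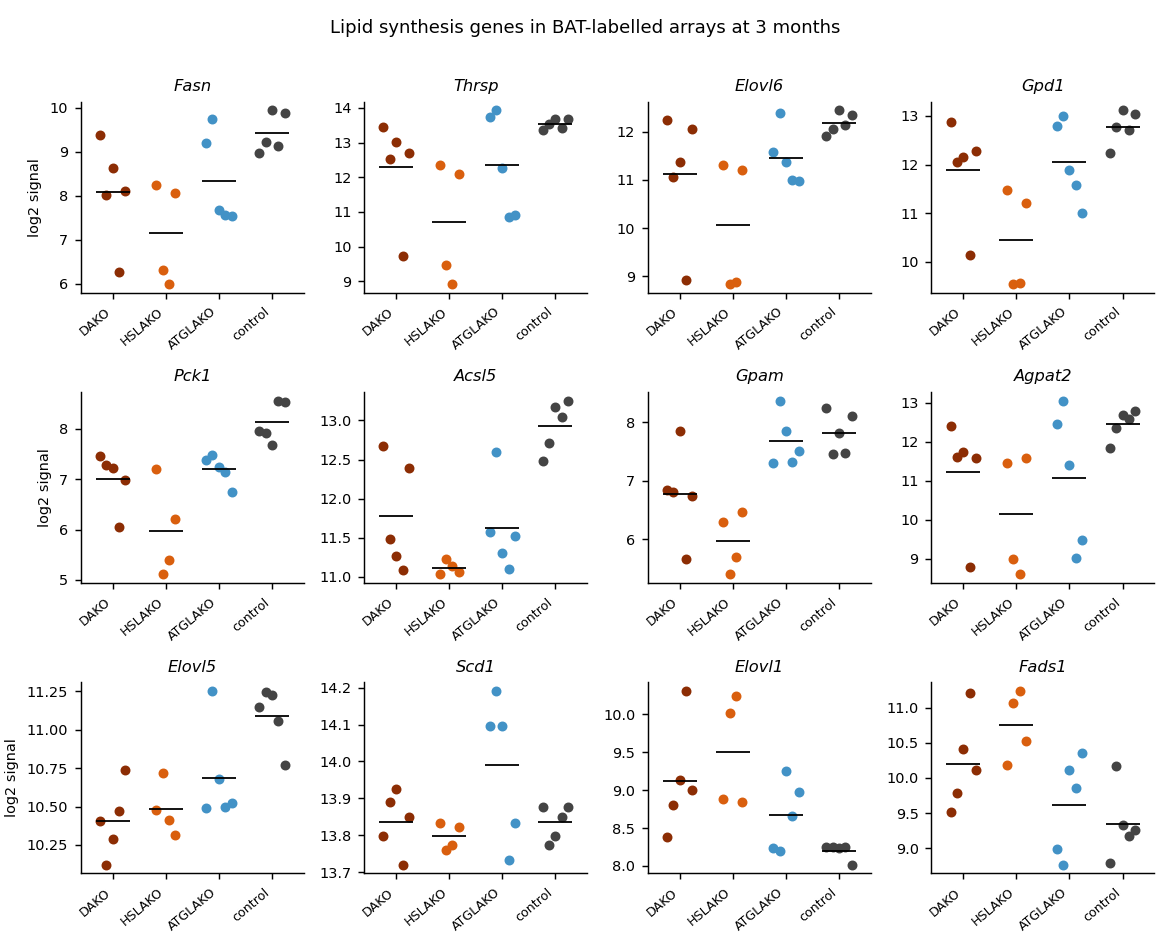
Log2 signal (vertical axis) of 12 genes in BAT at 3 months, with a point for each array and a bar at the mean of each labelled group, in the order DAKO, HSLAKO, ATGLAKO and control. Thrsp lies between 13.36 and 13.67 on the control arrays and reaches down to 9.73, 8.93 and 10.86 in the DAKO, HSLAKO and ATGLAKO arrays, whereas Elovl1 lies between 8.02 and 8.26 on control arrays and up to 10.30 in DAKO.

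Acsl5, which activates long-chain fatty acids, had 12.67, 11.49, 11.26, 11.09 and 12.39 in DAKO, 11.03, 11.23, 11.14 and 11.07 in HSLAKO, 11.57, 12.60, 11.31, 11.10 and 11.53 in ATGLAKO, and 12.48, 12.72, 13.18, 13.05 and 13.25 in control arrays. The HSLAKO arrays lay close together and below every control, which set Acsl5 apart from Thrsp and Fasn. Pck1, a phosphoenolpyruvate carboxykinase that supplies glycerol 3-phosphate in fasted fat, had 7.45, 7.29, 7.22, 6.06 and 6.99 in DAKO, 7.19, 5.11, 5.39 and 6.22 in HSLAKO, 7.39, 7.49, 7.24, 7.14 and 6.75 in ATGLAKO, and 7.96, 7.91, 7.68, 8.56 and 8.53 in control arrays. Every knockout array of Pck1 was below every control array, and so was every knockout array of Dgat1, another diacylglycerol acyltransferase.

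Fads1, the delta-5 desaturase, had 9.51, 9.78, 10.41, 11.21 and 10.12 in DAKO, 10.18, 11.07, 11.23 and 10.52 in HSLAKO, 9.00, 8.77, 10.11, 9.86 and 10.36 in ATGLAKO, and 8.79, 10.17, 9.33, 9.18 and 9.26 in control arrays. Elovl1, which elongates saturated very long chains, had 8.39, 8.80, 9.14, 10.30 and 9.00 in DAKO, 8.88, 10.02, 10.24 and 8.85 in HSLAKO, 8.24, 8.20, 9.26, 8.66 and 8.97 in ATGLAKO, and 8.26, 8.26, 8.23, 8.25 and 8.02 in control arrays. Elovl1 was above the control range on all DAKO and HSLAKO arrays, and its highest arrays were those with the lowest Thrsp. In HSLAKO the differences were 1.40 ± 0.57 for Fads1 (SE, adjusted p = 0.0995) and 1.29 ± 0.54 for Elovl1 (adjusted p = 0.108), and neither passed the test. Scd1, the delta-9 desaturase that makes oleate, lay between 13.72 and 14.19 on all arrays of BAT at 3 months. Lpin1, the phosphatidate phosphatase and coactivator lipin 1, had a difference of 1.14 ± 0.77 in ATGLAKO BAT (adjusted p = 0.502), which also did not pass the test.

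In separate counts of arrays that do not overlap, 19 of the 31 genes had all 4 HSLAKO arrays below all 5 control arrays, where 14% of all genes did, and 2, Elovl1 and Fads1, had them above, where 12.6% did. The 19 were Fasn, Acaca, Me1, Slc25a1, Mcat, Mlxipl, Thrsp, Elovl5, Elovl6, Acsl3, Acsl5, Gpd1, Pck1, Gpam, Agpat1, Agpat2, Lpin1, Dgat1 and Dgat2. In DAKO BAT 5 genes were entirely below the controls, Mcat, Elovl5, Pck1, Dgat1 and Dgat2, where 8.82% of all genes were, and Elovl1 was entirely above, where 8.32% were. In ATGLAKO BAT 2 were entirely below, Pck1 and Dgat1, where 4.61% of all genes were. When only the compared arrays were fitted, so that the spread came from these groups alone, 10 of 31 genes were called in HSLAKO against control BAT, where 13.4% of all genes were (6.53% lower and 6.82% higher): Fasn, Mcat, Elovl5, Acsl5, Gpd1, Pck1, Gpam, Agpat1 and Dgat1 were lower and Fads1 higher. The same change of fit called 2 genes in DAKO, Elovl5 and Dgat1, both lower, where 7.31% of all genes were called and 2.88% were lower, and 0 in ATGLAKO, where 0.799% were.

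Signals of other cell types differed between the same arrays. The mean of 9 macrophage markers was 8.15 to 10.37 on the DAKO arrays, 7.84 to 10.38 on the HSLAKO arrays, 6.21 to 8.61 on the ATGLAKO arrays and 5.98 to 6.25 on the control arrays, with 3, 4 and 0 of the 9 called higher in DAKO, HSLAKO and ATGLAKO. The mean of 11 skeletal muscle markers was 9.82 to 12.92 in DAKO, 9.97 to 12.77 in HSLAKO, 10.86 to 12.62 in ATGLAKO and 8.93 to 10.15 in control arrays, with none called by limma at this threshold in any of the 3. The median log2 difference of general adipocyte markers was -0.09, -0.07 and -0.18 in DAKO, HSLAKO and ATGLAKO, and that of brown adipocyte markers -0.60, -0.83 and -0.32. The mean of 7 hepatocyte markers was 4.48 to 5.84 in DAKO, 4.82 to 6.31 in HSLAKO, 4.52 to 9.82 in ATGLAKO and 7.10 to 10.20 in control arrays, with 1, 1 and 0 called lower and median log2 differences of -4.02, -3.87 and -3.06 in DAKO, HSLAKO and ATGLAKO. The part of these differences in the values above was not tested. In tissue RNA, fewer adipocytes and less of an mRNA per adipocyte cannot be told apart.

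**Figure D2:**
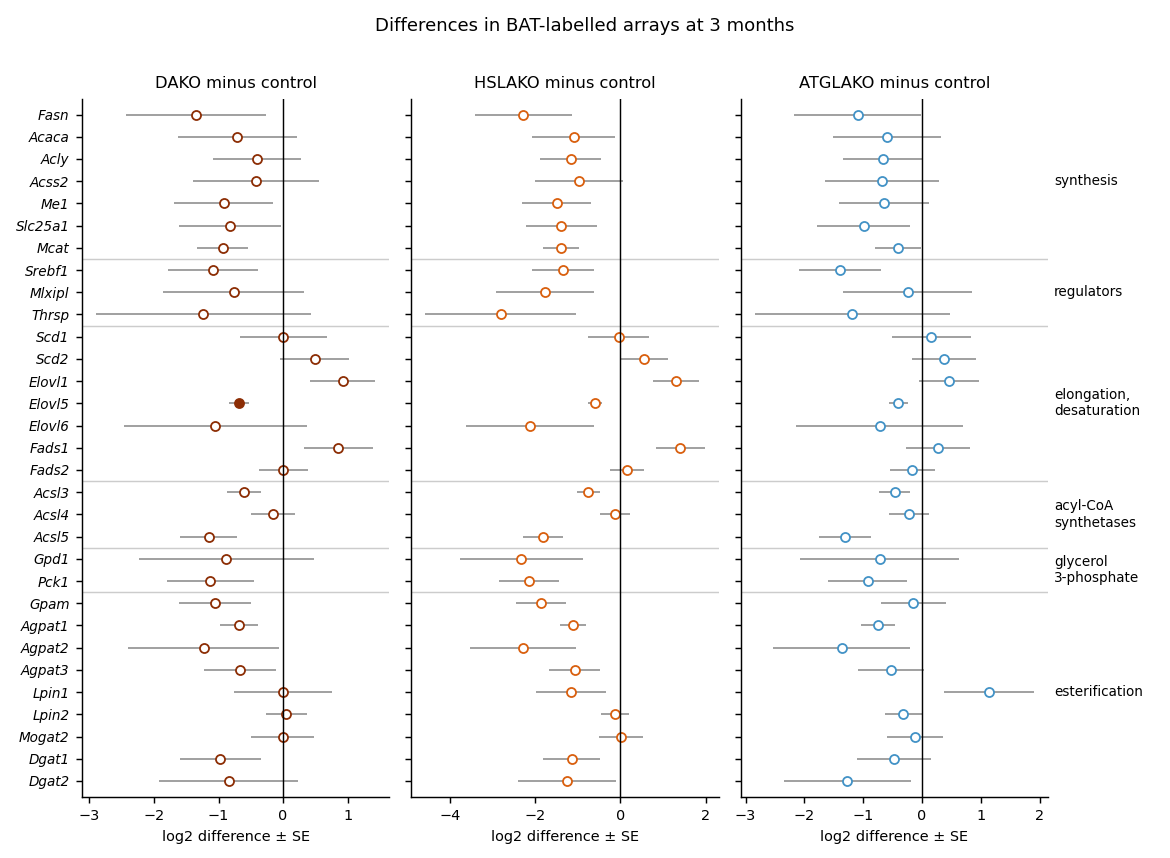
Log2 difference from control BAT at 3 months (horizontal axis) with its standard error for the 31 genes ordered by role, for DAKO, HSLAKO and ATGLAKO; filled symbols passed the test. Elovl5 in DAKO, at -0.68, is the 1 filled symbol, and the HSLAKO differences reach -2.81 for Thrsp and 1.40 for Fads1.

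No gene of the list differed by the test between arrays with both deletions and arrays with either one. DAKO against HSLAKO BAT at 3 months gave 0 called genes of 31 (0% of all genes), and DAKO against ATGLAKO gave 0 (0.00815% of all genes), with 0 of the 31 at an unadjusted p under 0.05 by limma in either comparison. For the synthesis genes the means of all 7 were higher in DAKO than in HSLAKO, with a median difference of 0.56. The interaction of the 2 deletions, which asks whether the effect of losing HSL differed with and without ATGL, had positive estimates for 27 of the 31 genes and a median of 0.97, and 0 were called (0.00815% of all genes), with 2 at an unadjusted p under 0.05. Its largest estimates were 2.76 ± 2.42 for Thrsp (SE, adjusted p = 0.84) and 2.43 ± 1.71 for Agpat2 (adjusted p = 0.816), so the errors were close to the size of the estimates. All 31 estimates come from the same arrays and are not independent. The share of all genes with a positive estimate is not given beside the 27, so that count is a description only.

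At 7 months the arrays of a group fell apart by their Ucp1 signal, 2 and 2 in each knockout. Fasn had 8.38, 7.55, 4.75 and 4.82 in DAKO, 4.91, 4.80, 9.25 and 9.68 in HSLAKO, 6.49, 5.99, 8.91 and 10.12 in ATGLAKO, and 8.59, 6.49, 6.78 and 4.73 in control arrays, so every group held arrays far apart. The highest Fasn signals in each knockout were on its 2 arrays in the upper Ucp1 range. Mogat2 was the 1 gene called, lower in HSLAKO, where 1.83% of all genes were called and 1.35% were lower. It was not above background on any HSLAKO array (4.47, 4.27, 4.53 and 4.34), against 7.80, 7.42, 6.56 and 6.28 on the control arrays, which puts it at least 4.60-fold lower in HSLAKO (adjusted p = 0.00202). This bound sets the control mean against the lowest signal of probes above background. All 4 control arrays had mesothelial markers. Mogat2 was detected on all 11 BAT arrays with these markers, on 13 of 33 in the upper Ucp1 range and on 4 of the other 12. The part of the mesothelial signal in the difference was not tested. On a second probe of the gene the log2 difference was -0.77, and with the authors' values it was -0.67. The call was lost with either of these, with the compared groups alone, and when HSLAKO replicate 1, control replicate 1 or control replicate 2 was left out. DAKO BAT had 0 genes called (1.75% of all genes) and ATGLAKO BAT 0 (0% of all genes), with medians over the 31 genes of -0.52 and 0.58.

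At 12 months 5 genes were called lower in HSLAKO BAT, where 9.6% of all genes were called and 6.35% were lower, and 1 in DAKO BAT, where 7.97% were called and 5.6% were lower. Both comparisons used control arrays in the lower Ucp1 range with mesothelial markers. Elovl5 had 9.89, 10.80, 10.63 and 10.34 in DAKO, 10.12, 10.20, 10.21 and 10.06 in HSLAKO, 10.69, 10.72, 10.39 and 11.14 in ATGLAKO, and 11.25, 11.26, 11.36 and 11.08 in control arrays. It fell by 1.09 ± 0.17 in HSLAKO (SE, adjusted p = 2.6e-05) and by 0.82 ± 0.17 in DAKO (adjusted p = 0.000727), and no DAKO or HSLAKO array reached the lowest control. Of the 31 genes, 3 had all DAKO arrays below all controls, where 8.98% of all genes did. All HSLAKO arrays were below all controls for 5, where 9.89% of all genes had them below. The Elovl5 call in DAKO was lost without DAKO replicate 1 and when only the compared groups were fitted.

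The other 4 genes called in HSLAKO were a desaturase and 3 genes of esterification. Fads2 had 4.93, 4.83, 4.62 and 4.71 in DAKO, 4.80, 4.35, 4.25 and 4.29 in HSLAKO, 4.93, 4.32, 4.32 and 5.20 in ATGLAKO, and 5.92, 7.03, 6.71 and 5.29 in control arrays; it was detected on 3, 1, 1 and 4 of these arrays. The fitted difference in HSLAKO was -1.82 ± 0.43 (SE, adjusted p = 0.0018), but 3 of the 4 HSLAKO values lie at background, so its size is not a measured fold. With the authors' values the difference was -0.40 and the call was lost, as it also was without background correction, with the compared groups alone and without control replicate 2 or 3. Dgat1 had 6.46, 6.32, 9.67 and 7.59 in DAKO, 6.46, 6.34, 9.03 and 6.53 in HSLAKO, 9.89, 9.68, 9.97 and 10.97 in ATGLAKO, and 9.90, 10.51, 10.12 and 9.39 in control arrays. It fell by 2.89 ± 0.70 in HSLAKO (adjusted p = 0.00248). Lpin1 had 5.68, 8.48, 9.88 and 8.74 in DAKO, 5.29, 5.63, 9.87 and 7.29 in HSLAKO, 10.53, 10.28, 10.33 and 10.93 in ATGLAKO, and 10.57, 10.82, 9.99 and 9.97 in control arrays, and fell by 3.32 ± 0.86 in HSLAKO (adjusted p = 0.00436). Dgat2 had 6.76, 8.62, 13.23 and 10.13 in DAKO, 6.23, 6.08, 12.57 and 9.34 in HSLAKO, 13.37, 13.24, 11.49 and 12.46 in ATGLAKO, and 13.29, 13.76, 11.83 and 13.23 in control arrays, and fell by 4.47 ± 1.21 in HSLAKO (adjusted p = 0.00658). Replicate 3 of HSLAKO and replicate 3 of DAKO were the highest arrays of their groups in Dgat1, Lpin1 and Dgat2, and were the ones in the upper Ucp1 range. Without HSLAKO replicate 3, 11 genes were called in HSLAKO (13.5% of all genes), and without HSLAKO replicate 1 or 2, or control replicate 2, 2 were (5.11%, 5.02% and 8.73% of all genes), while 3 were without control replicate 1 (4.76%). When only the compared groups were fitted, 1 gene was called in HSLAKO (1.78% of all genes) and 0 in DAKO (1.21%). Dgat1, Lpin1 and Dgat2 were among the HSLAKO calls lost in that fit. The calls of Lpin1 and Dgat2 were also lost with the authors' values and when single arrays, such as control replicate 1, were left out. That of Dgat2 was lost without background correction as well.

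Thrsp at 12 months had 4.43, 5.02, 13.43 and 5.88 in DAKO, 4.55, 4.29, 12.39 and 5.48 in HSLAKO, 13.71, 13.37, 11.94 and 10.94 in ATGLAKO, and 11.20, 13.79, 9.78 and 10.72 in control arrays, and was not called in either knockout. Scd1 had 8.14, 12.81, 13.91 and 13.76 in DAKO and 9.02, 9.01, 13.82 and 12.47 in HSLAKO, against 13.73, 13.58, 13.80 and 13.73 in control arrays. The arrays lowest in Scd1, DAKO replicate 1 and HSLAKO replicates 1 and 2, were also the lowest of their groups in Thrsp and Dgat2. In ATGLAKO BAT 0 genes were called (0.636% of all genes), and the median over the 31 was 0.52. On the arrays of 12 months the mean of the macrophage markers was 7.94 to 10.53 in DAKO, 7.57 to 10.25 in HSLAKO and 7.60 to 9.18 in control BAT, and that of the skeletal muscle markers 4.42 to 10.97, 4.61 to 12.60 and 5.43 to 5.57. The mean of the general adipocyte markers was 5.08 to 9.79 in DAKO, 5.18 to 9.52 in HSLAKO and 10.32 to 10.66 in control BAT, with 4 of 11 called lower in DAKO (median log2 difference -2.65) and 9 in HSLAKO (-3.75). That of the hepatocyte markers was 4.44 to 5.43, 4.39 to 4.54 and 8.51 to 9.98 in the same order, with 5 of 7 called lower in DAKO and 6 in HSLAKO. Of the 10 mesothelial markers, 8 were called lower in DAKO and 6 in HSLAKO. The part of these signals in the differences was not tested.

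**Figure D3:**
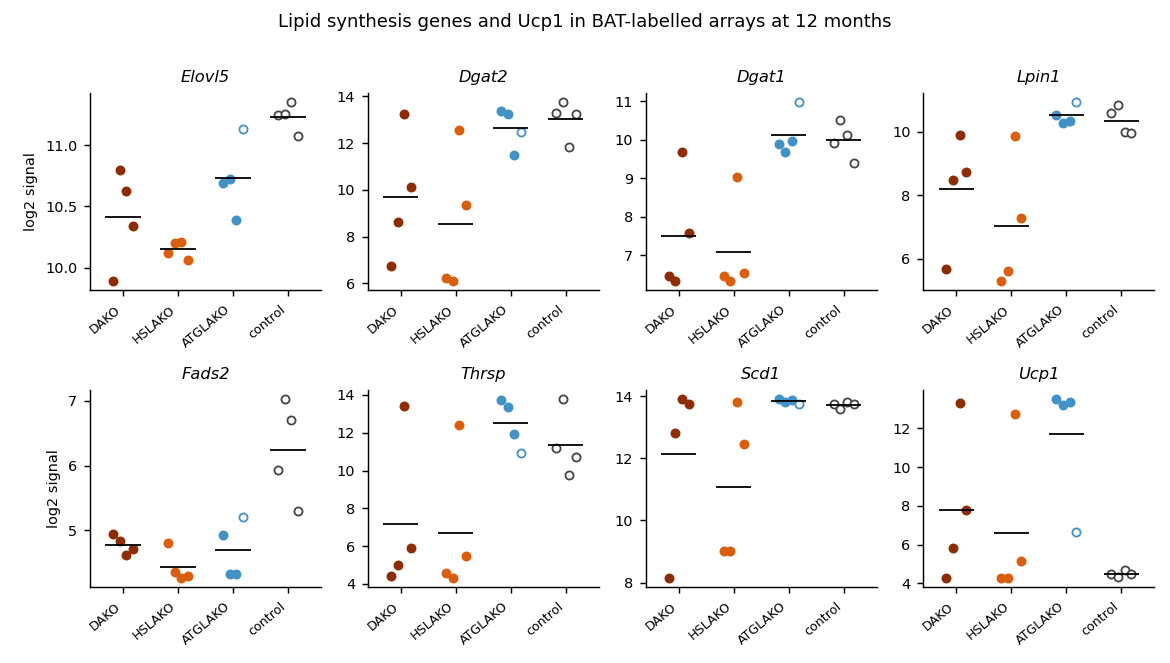
Log2 signal (vertical axis) of Elovl5, Dgat2, Dgat1, Lpin1, Fads2, Thrsp, Scd1 and Ucp1 in BAT at 12 months by labelled group, in the order DAKO, HSLAKO, ATGLAKO and control; points are arrays, bars are means, and open points had mesothelial markers. All 4 control arrays are open and lie between 4.33 and 4.69 in Ucp1, and 1 DAKO array (13.43) and 1 HSLAKO array (12.39) stand far above the others of their groups in Thrsp.

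DAKO BAT at 14 months, the tumour stage in the study, was set against DAKO BAT at 12 months. The study describes BAT up to 12 months as premalignant, yet its liposarcomas were detected over a span of ages that includes 12 months. The labels give no tumour status, so this is a comparison of ages. The mean of the general adipocyte markers was 8.30 to 9.70 at 14 months and 5.08 to 9.79 at 12 months. None of the 31 genes was called by limma, 0 had an unadjusted p under 0.05, and 0% of all genes were called. With arrays weighted by their agreement with the fit, 15 of the 31 were called, 14 higher and 1 lower at 14 months, where 15.3% of all genes were called. Thrsp had 12.67, 12.63, 13.01, 4.96 and 6.72 at 14 months, and Dgat2 had 12.26, 11.88, 12.63, 10.18 and 8.23. The first 3 of these arrays had Ucp1 signals of 13.47, 13.56 and 13.56 and the last 2 had 6.21 and 6.82, so the group held both kinds of arrays, as DAKO BAT at 12 months did. Elovl5 differed little between them, with 10.52, 10.60, 10.70, 10.83 and 10.33.

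The list was next followed along the signals of Ucp1, Lipe and Pnpla2 across the 56 arrays labelled BAT, with the labelled group as a factor, so that a slope describes arrays within groups. With Ucp1, 23 of 31 genes rose and 5 fell, where 19.9% of all genes rose and 26% fell (45.9% in all). Fatty acid synthesis and its regulators moved with Ucp1: all 7 synthesis genes and all 3 regulators rose. The slopes, in log2 signal per log2 of Ucp1, were 0.80 ± 0.07 for Thrsp (SE), 0.56 ± 0.04 for Mlxipl, which encodes ChREBP, and 0.22 ± 0.04 for Srebf1, which encodes SREBP-1. Fasn had 0.49 ± 0.04 and Acaca, acetyl-CoA carboxylase, 0.45 ± 0.03. Acss2, which makes acetyl-CoA from acetate, had 0.45, Slc25a1, the mitochondrial citrate carrier, 0.35, Me1, which makes NADPH, 0.32, Acly, which cleaves citrate, 0.28, and Mcat, of mitochondrial fatty acid synthesis, 0.15.

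Elongation and desaturation split. Elovl6 (0.65 ± 0.05) and Scd1 (0.25 ± 0.05) rose with Ucp1, while Elovl1 (-0.22 ± 0.02), Fads1 (-0.21 ± 0.03) and Fads2 (-0.10 ± 0.03) fell. Elovl5 had a slope of 0.01 and Scd2, a desaturase of brain and other tissues, 0.06, and neither passed the test. Among the acyl-CoA synthetases, Acsl5 (0.16) and Acsl3 (0.10) rose and Acsl4 (-0.11), which prefers arachidonate, fell.

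In glycerol 3-phosphate supply and esterification, 9 of 11 genes rose. Gpd1 had a slope of 0.66 ± 0.04 and Pck1 of 0.31 ± 0.02. Agpat2 had 0.52 ± 0.05, Dgat2 0.44 ± 0.06, Lpin1 0.35, Agpat3 0.27, Gpam, the mitochondrial acyltransferase that starts esterification, 0.25, Dgat1 0.25 and Agpat1 0.09. Lpin2, another lipin, fell with -0.10, and Mogat2 (-0.02) did not pass the test. The median slope over the 31 genes was 0.25, beside -0.00 over all genes.

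**Figure D4:**
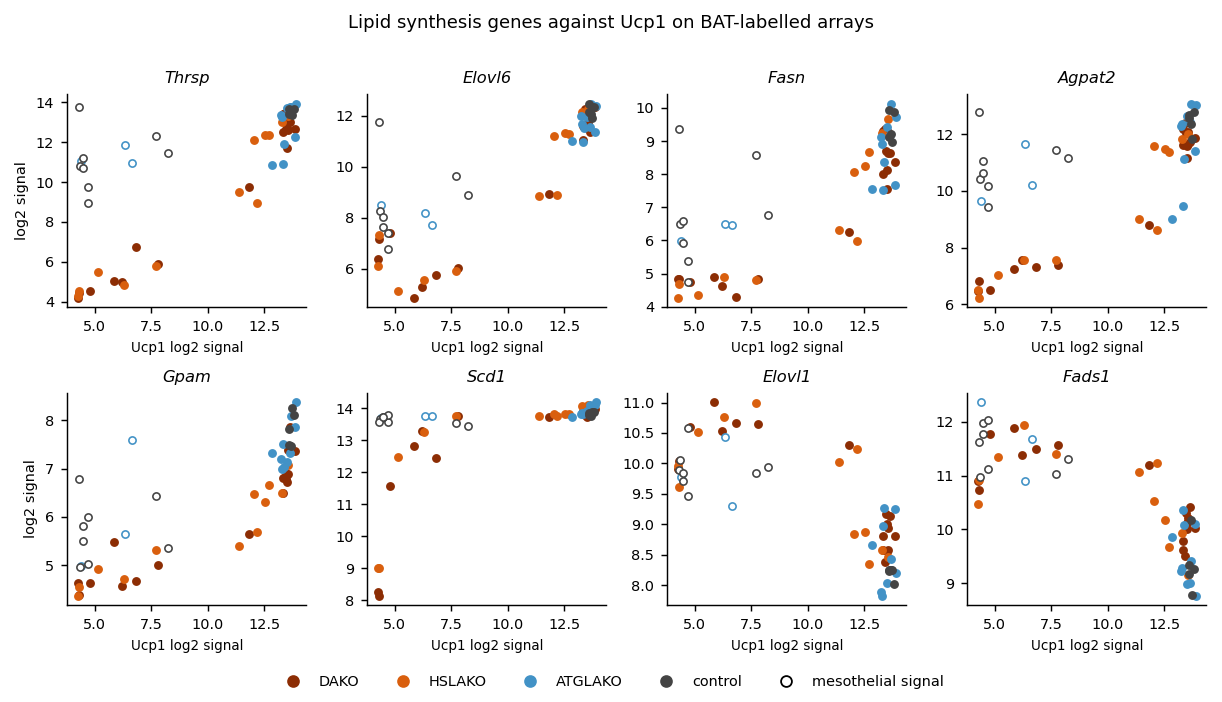
Log2 signal (vertical axis) of Thrsp, Elovl6, Fasn, Agpat2, Gpam, Scd1, Elovl1 and Fads1 against the log2 signal of Ucp1 (horizontal axis) on the 56 arrays labelled BAT; colours are the labelled genotypes and open points had mesothelial markers. The arrays form an upper Ucp1 range (11.38 to 13.89) and a lower one (4.26 to 8.25), and in the lower one the arrays with mesothelial markers have Thrsp signals of 8.94 to 13.79 and those without 4.20 to 6.72.

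The picture of signals against Ucp1 showed 3 sets of arrays rather than a line. On the 33 arrays in the upper Ucp1 range, Thrsp lay between 8.93 and 13.93 and Agpat2 between 8.61 and 13.07. On the 11 arrays in the lower range with mesothelial markers, they lay between 8.94 and 13.79 and between 9.45 and 12.78. On the 12 arrays in the lower range without mesothelial markers, all labelled HSLAKO or DAKO at 7 months or later, they lay between 4.20 and 6.72 and between 6.24 and 7.58. Fasn, Elovl6, Mlxipl and Dgat1 lay lowest in the same set of arrays: Fasn ran from 6.00 to 10.12, 4.73 to 9.37 and 4.28 to 4.91 in these 3 sets, and Dgat1 from 8.68 to 10.48, 8.03 to 10.97 and 6.30 to 7.59. Scd1 lay between 13.72 and 14.19, between 13.46 and 13.80, and between 8.14 and 13.76. Acsl5 divided the arrays otherwise, with 11.03 to 13.25 in the upper range, 10.25 to 10.86 in the lower range with mesothelial markers and 10.08 to 11.49 without. Elovl1 reached its highest signals on the 12 arrays in the lower Ucp1 range without mesothelial markers (9.61 to 11.01, against 9.30 to 10.57 with mesothelial markers and 7.83 to 10.30 in the upper range). Mogat2, Fads2 and Elovl5 had their highest medians in the set with mesothelial markers, at 6.28, 5.71 and 11.09. Their medians were 4.69, 4.47 and 10.63 in the upper range and 4.49, 4.79 and 10.33 in the lower range without these markers. These sets were defined from the data, they are not the study's groups, and no test was made between them.

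Within the upper range alone, 10 genes rose with Ucp1 and 0 fell (5.63% of all genes were called, 3.29% rising): Agpat2 (2.06), Thrsp (2.01), Elovl6 (1.50), Fasn (1.40), Mlxipl (1.34), Gpd1 (1.25), Me1 (1.06), Gpam (0.89), Mcat (0.87) and Acly (0.97). Within the lower range 0 were called by limma, and 0% of all genes were. The slopes of Elovl1 (0.05) and Fads1 (0.04) changed sign in the lower range. Elovl1 (-0.60) and Fads1 (-0.66) kept their sign in the upper range without passing the test. Some signals there lay near the top of the scale, with Ucp1 up to 13.89 and Scd1 up to 14.19. The highest signals of the adipocyte markers Plin4 and Lpl were 14.26. Whether high signals were compressed, which would change these slopes, was not tested.

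Lipe and Pnpla2 gave similar counts. Along Lipe 23 genes rose and 5 fell (43.7% of all genes, 19.4% rising and 24.3% falling), with a median slope of 0.57, and along Pnpla2 20 rose and 3 fell (32% of all genes, 14.9% rising and 17.1% falling), with a median of 0.35. In the upper Ucp1 range alone the counts were 17 and 2 along Lipe (11.1% of all genes, 6.03% rising and 5.07% falling) and 15 and 2 along Pnpla2 (18.2%, 7.49% rising and 10.7% falling), and the 2 that fell were Elovl1 and Fads1 in both. Thrsp had slopes of 1.73 ± 0.15 on Lipe and 1.11 ± 0.21 on Pnpla2 (SE). Agpat2 and Mlxipl both had 1.20 on Lipe, with errors of 0.09 and 0.10, and Elovl6 had 1.38 ± 0.13. Elovl1 and Fads1 fell along both, with -0.48 ± 0.05 and -0.45 ± 0.06 on Lipe and -0.31 each on Pnpla2. The 3 signals themselves moved together, with a slope of 0.39 ± 0.04 for Lipe on Ucp1 and 0.30 ± 0.06 for Pnpla2 on Ucp1. Their correlations within groups were 0.85 for Ucp1 and Lipe, 0.58 for Ucp1 and Pnpla2 and 0.50 for Lipe and Pnpla2. Lipe was detected on 6 of the 12 arrays in the lower Ucp1 range without mesothelial markers. The 3 signals were also put in 1 model, which can separate signals so closely tied only poorly. There Ucp1 had 6 called genes, all rising (5.15% of all genes were called, 3.22% rising): Acaca (0.27), Mlxipl (0.28), Elovl6 (0.46), Gpd1 (0.47), Pck1 (0.19) and Agpat3 (0.17). Lipe had 3 called, all rising (0.897% of all genes were called, 0.587% rising): Agpat2 (0.80), Mlxipl (0.50) and Gpam (0.38). Pnpla2 had Mlxipl (0.31), rising, and Acsl4 (-0.21), falling (1.22% of all genes were called, 0.644% rising and 0.579% falling). Mlxipl was the 1 gene of the list called for all 3.

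**Figure D5:**
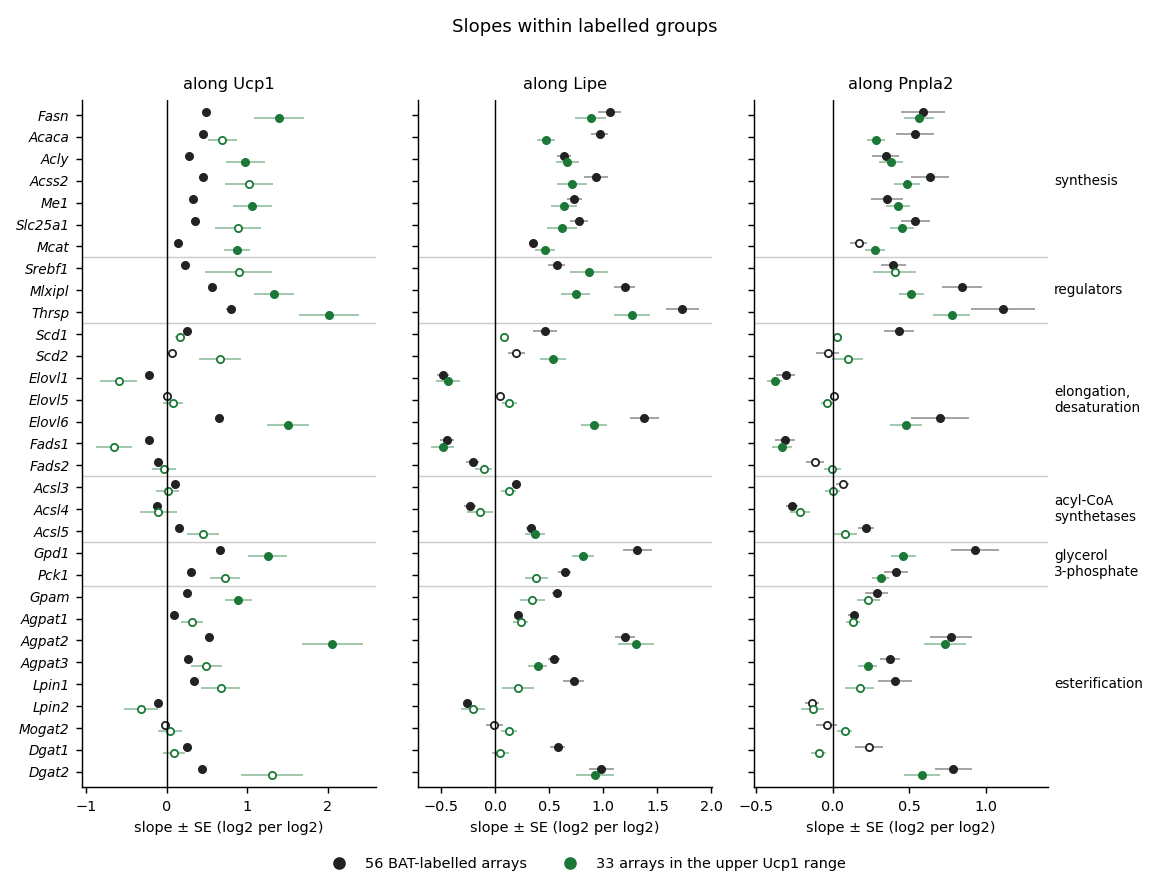
Slope of the 31 genes, ordered by role, in log2 signal per log2 of Ucp1, Lipe or Pnpla2 (horizontal axis) with standard errors; black symbols are all 56 arrays labelled BAT, green symbols the 33 arrays in the upper Ucp1 range, and filled symbols passed the test. Along Ucp1, Thrsp has 0.80 over all arrays and 2.01 in the upper range, and Elovl1 and Fads1 lie below 0 with -0.22 and -0.21 over all arrays.

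Other cell type signals ran along Ucp1 as well. All 9 macrophage markers fell with Ucp1 (median slope -0.24) and all 11 skeletal muscle markers rose (0.45), as did 8 of 11 general adipocyte markers and 5 of 7 brown adipocyte markers besides Ucp1, while 4 of 10 mesothelial markers fell. The part of these signals in the slopes of the list was not tested.

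In WAT at 3 months, and between tissues, none of the 31 genes was called. DAKO, HSLAKO and ATGLAKO WAT each had 0 called by limma (0% of all genes in each), with 2, 0 and 0 at an unadjusted p under 0.05 and medians of -0.54, 0.13 and -0.08. Thrsp had 13.22, 5.96, 9.43 and 12.22 in DAKO, 7.74, 12.62, 12.98 and 13.35 in HSLAKO, 10.46, 10.58, 12.34, 11.98 and 13.55 in ATGLAKO, and 10.99, 13.77 and 11.71 in control WAT. Fasn had 9.19, 4.56, 6.05 and 7.41 in DAKO, 5.49, 8.46, 9.00 and 9.29 in HSLAKO, 6.16, 6.11, 8.11, 7.60 and 9.48 in ATGLAKO, and 5.78, 9.32 and 7.26 in control WAT, so the groups overlapped. Elovl5 had 10.13, 10.19, 10.65 and 10.45 in DAKO WAT, against 10.87, 11.05 and 10.69 in control WAT, and was the 1 gene whose DAKO arrays were all below the controls, where 3.57% of all genes had them below. Ucp1 on these arrays was 13.29, 6.12, 11.45 and 13.40 in DAKO, 11.35, 12.56, 13.49 and 13.46 in HSLAKO, 4.88, 4.76, 4.24, 4.37 and 13.47 in ATGLAKO, and 4.99, 13.60 and 13.29 in control WAT, so the labelled tissues were not separated by it. BAT against WAT gave 0 called genes in DAKO (0% of all genes), HSLAKO (0%), ATGLAKO (0.538%) and control mice (0.0489%), with 0, 0, 4 and 3 genes at an unadjusted p under 0.05.

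Another 40 genes of the pathway were listed by name, and 31 were measured. Along Ucp1 13 of them rose and 4 fell (19.9% and 26% of all genes), along Lipe 14 and 4 (19.4% and 24.3%), and along Pnpla2 10 and 4 (14.9% and 17.1%). In HSLAKO BAT at 3 months 3 were called, where 2.63% of all genes were. Elovl3, an elongase of brown fat, was not above background on any HSLAKO array, and its bound was at least 11.3-fold lower, against the control arrays (adjusted p = 0.00297). Mogat1, a monoacylglycerol acyltransferase, fell by 1.99 on the log2 scale (adjusted p = 0.00903), and Fads3, a relative of the desaturases, rose by 2.16 (adjusted p = 0.00516). None was called by limma in DAKO or ATGLAKO BAT at 3 months, with 11 and 7 at an unadjusted p under 0.05. At 7 months Fads3 was the 1 gene called in DAKO BAT, with a log2 difference of -2.58 (adjusted p = 0.00268), where 1.75% of all genes were called. At 12 months 4 were called in DAKO and 6 in HSLAKO BAT, where 7.97% and 9.6% of all genes were. Fads3, Hacd2, a dehydratase of elongation, Gpat3, a glycerol 3-phosphate acyltransferase, and Mogat1 fell in both DAKO and HSLAKO BAT, against the same control arrays. The log2 differences in DAKO and HSLAKO were -2.90 and -3.47 for Fads3, -2.63 and -3.20 for Hacd2, -2.76 and -3.03 for Gpat3 and -2.64 and -2.71 for Mogat1. In HSLAKO BAT at 12 months Nr1h3, the nuclear receptor LXR alpha, also fell (-2.27, adjusted p = 0.000567), and Acsl6 rose (1.09, adjusted p = 0.00528).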

How the data were processed

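The 72 RNA samples were hybridised to the MouseRef-8 v2.0 bead array of Illumina. The deposited table holds, per probe and array, an intensity and a detection p-value as the authors exported them from BeadStudio, with no normalization, for 25697 probes. A second table deposited by the authors holds their own normalized values on a linear intensity scale (142.6 to 19393), whose method is not given in the sources used here; it served as an alternative. Array medians of raw intensity were 94.7 to 160.6 and 44.8% to 54.8% of probes were detected, and the number of arrays limits the precision. Probe names came from the platform annotation, with symbols updated: 23978 probes had 1 symbol and 1719 none.

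Intensities were normalized to log2 values, not part of the deposited tables, with neqc (limma 3.58.1, R 4.3.3, offset 16). The 18083 probes with a detection p-value under 0.05 on at least 3 arrays were tested in 1 fit of 17 group means (residual degrees of freedom: 55), and p-values were adjusted by Benjamini-Hochberg. A gene is represented by its probe with the highest mean; 25 genes of the list had 1 tested probe and 6 had more. Slopes used the 56 arrays labelled BAT, with the labelled group as a factor (42 residual degrees of freedom). Genes named without a call are those with the 3 largest differences in either direction; others are shown with values because a result turns on them and were chosen after their values were seen. The genes and lists were chosen with earlier results of these data known. Same-numbered arrays deviated together, all with correlations over 0.1, in HSLAKO against control WAT alone (3 pairs, 0.13 to 0.59). The fit was tested on simulated data in which every array had the spread of control BAT at 3 months. That test does not cover the wider spread within the knockout groups. p-values measure the spread between these samples. In the main fit this spread was pooled over all 17 labelled groups and not taken from the compared arrays alone. Alternatives were the authors' values, scaling to a common median, no background correction, the filter on low signals, a second probe, array weights, a fit of the compared groups, a threshold of 0.05, blocks for replicate number and mouse, and leaving out arrays. RefSeq promoter windows were searched with Python 3.11.15.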

Additional observations from a re-analysis of the deposited data

Results flagged for a closer look

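The values of 1 gene in 1 labelled group of 4 or 5 arrays were examined for an array far from the others. Of 104 such sets of values, 12 had one. About 1 in 20 would by chance if the sets were independent. The same arrays recur in many sets, and some genes were chosen after their values were seen, so the 2 rates cannot be compared. In DAKO BAT at 3 months replicate 4 was the lowest array in Ucp1 (11.82, the others 13.32 to 13.66), Thrsp (9.73, the others 12.54 to 13.45) and Agpat2 (8.80, the others 11.57 to 12.39). In ATGLAKO BAT at 3 months replicate 2 was the highest in Elovl5 (11.25, the others 10.49 to 10.68), and in control BAT at 3 months replicate 5 was the lowest in Elovl1 (8.02, the others 8.23 to 8.26).

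In HSLAKO BAT at 12 months replicate 3 was the highest in Thrsp (12.39, the others 4.29 to 5.48), Dgat1 (9.03, the others 6.34 to 6.53) and Ucp1 (12.72, the others 4.26 to 5.17). In DAKO BAT at 12 months replicate 3 was the highest in Thrsp (13.43, the others 4.43 to 5.88). In ATGLAKO BAT at 12 months replicate 4, which had mesothelial markers, was the lowest in Ucp1 (6.65, the others 13.23 to 13.52). At 7 months Mogat2 was highest in replicate 3 of DAKO BAT (6.37, the others 4.45 to 4.61) and in replicate 1 of ATGLAKO BAT (7.10, the others 5.01 to 5.15).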

How the results depend on the processing

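Of 228 counts of called genes under settings other than leaving out 1 array, 184 stayed within 1.5 times the value reported and 44 did not; the cause was not tested. Shares of all genes called in the same fit are given in parentheses. The second probe was used for the genes of the list only, so its counts have no share of all genes. Of the 2 genes called in DAKO BAT with a second probe, 1 was higher and 1 lower, at 3 months and again at 12 months. The lower one was Elovl5, which has 1 probe. The higher one was among the 6 genes with more than 1 tested probe (Acss2, Me1, Slc25a1, Elovl1, Acsl4 and Mogat2) and was not called on its probe with the highest mean. HSLAKO BAT at 3 months had 6 genes called at an adjusted p of 0.05 (11%), 4 with the authors' values (2.57%), 10 with the compared groups alone (13.4%), 7 with array weights (15.1%), 1 without arrays with mesothelial markers (3.63%) and 3 without arrays whose lipase signal went against the label (5.18%). DAKO BAT at 3 months had 0 with scaling to a common median (0.171%), 2 with the compared groups alone (7.31%), 4 with array weights (11.4%), 2 with a second probe and 0 without arrays whose lipase signal went against the label (0.807%), and ATGLAKO BAT had 1 with array weights (3.2%). HSLAKO BAT at 7 months had 0 with the authors' values (1.83%), 2 with median scaling (29.2%), 0 with the compared groups (0.367%) and 0 with a second probe; DAKO BAT had 2 with median scaling (8.01%), 1 with array weights (3.91%) and 1 without lipase arrays against the label (2.84%), and ATGLAKO BAT 1 without those (0.595%). At 12 months ATGLAKO BAT had 1 with median scaling (1.9%) and 7 with array weights (19.9%); HSLAKO BAT had 3 with the authors' values (9.22%), 1 with the compared groups (1.78%) and 12 with array weights (23.4%); DAKO BAT had 3 with median scaling (17.5%), 0 with the compared groups (1.21%), 9 with array weights (24.9%), 2 with a second probe and 3 without lipase arrays against the label (10.9%). With array weights, DAKO BAT at 14 months against 12 months had 15 (15.3%), the interaction 1 (0.514%), ATGLAKO WAT 3 (8.66%), and BAT against WAT 3 in ATGLAKO (16.2%) and 3 in control mice (7.12%); in ATGLAKO mice median scaling gave 2 (22.9%) and leaving out lipase arrays against the label 1 (1.19%). Slopes on Ucp1, Lipe and Pnpla2 had 6, 3 and 2 genes called in 1 model (5.15%, 0.897% and 1.22%) and 0 in the lower Ucp1 range (0%), and Ucp1 had 10 in the upper range (5.63%); both ranges were chosen after seeing the data.

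Leaving out each array in turn gave 0 to 1 genes in DAKO BAT at 3 months (0.359% to 1.16% of all genes). At 7 months it gave 0 to 1 in HSLAKO BAT (0.351% to 2.9%) and 0 to 1 in DAKO BAT (0.196% to 3.93%), where leaving out DAKO replicate 1 gave the 1. At 12 months it gave 0 to 3 in ATGLAKO BAT (0.00815% to 5.21%), with 3 and 5.21% without replicate 4. HSLAKO BAT at 12 months had 2 to 11 (4.76% to 13.5%). DAKO BAT at 12 months had 0 to 4 (3.87% to 12.1%), with 0 without replicate 1, 4 without replicate 3 and 2 without control replicate 4. Elsewhere the counts were 0 to 0. Values that changed sign were Scd2 in ATGLAKO BAT at 3 months (-0.14 without lipase arrays against the label) and some slopes. Along Ucp1 they included Elovl5 (-0.0064 with median scaling, -0.0018 without the group term, -0.0402 in 1 model), Srebf1 (-0.0396 in 1 model, -0.0471 in the lower range), Mogat2 (0.0399 in the upper and 0.0689 in the lower range), and Elovl1 (0.0453), Fads1 (0.0351), Acsl3 (-0.0065) and Agpat1 (-0.13) in the lower range. Of the 31 slopes along Lipe, 1 changed sign in the upper range, 5 in the lower range (Elovl1 0.28, Acsl3 -0.44 and Agpat3 -0.16 among them) and 2 in 1 model; along Pnpla2 5 did in the upper range, 15 in the lower range (Fasn -0.32, Elovl6 -0.43, Acly -0.25, Thrsp -0.0083, Elovl1 0.14 and Fads1 0.0425 among them) and 5 in 1 model. The replicate block changed no count in any comparison: counts were 0 for HSLAKO and 1 for DAKO BAT at 3 months with it, and same-numbered arrays shared only a number, except in HSLAKO against control WAT, where 0 genes were called with and without the block. A block for mouse changed no count between BAT and WAT. A slide block could not be fitted, and control comparisons at 7 and 12 months give no value without arrays with mesothelial markers. Arrays at background limit Fads2 and Mogat2.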
